A study of Mus musculus with 18 samples.

Results

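The genes described here are 32 genes of mouse chromosome 16 whose human counterparts lie in 22q11.2, the segment lost in DiGeorge syndrome, and in its distal flank. They were taken from the count table by gene symbol, and the 32 symbols matched 35 of its 40620 rows. The 3 further rows, which are second entries for Arvcf, Trmt2a and Ranbp1, held 0 counts, so each gene is read from 1 row. Dgcr14 and Ufd1l are older symbols, which the annotation used here gives as Ess2 and Ufd1. Of the 32 genes, 29 had enough counts to be tested. Tbx1 and Cldn5 had 0 counts in every library used, and Aifm3 had 4 counts over 15 libraries.

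The RNA came from MC3T3-E1, a mouse preosteoblast line labelled wild type, in which Rcor2, a corepressor of the CoREST family, was targeted by stably expressed short hairpins. Cells carried shScramble (the control hairpin), shRcor2-18 or shRcor2-20 and were labelled 0h, 24h or 7d, with 2 samples in each of the 9 groups and 18 RNA-seq libraries in all. The osteogenic medium of the protocol contained dexamethasone (10 nM), ascorbic acid (50 µg/ml) and beta-glycerophosphate (5 mM), and the control cells were taken through the same times as the hairpin cells. The protocol names later days of differentiation other than day 7, so times are given as the sample titles state them, and the labels leave unsaid whether a group's samples grew as separate cultures and whether a construct was 1 clone. P-values therefore reflect only the scatter among these libraries, part or all of which can be technical.

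Many row names of this table are out of register with the reads. The 32 genes lie in a stretch of chromosome 16, from Mefv to Cbr3, that earlier work on these data took as in register. Within that stretch 16 of 17 rows of broadly expressed gene families (94.1%) averaged 20 CPM (counts scaled by the library's total) or more, against 97 of 444 (21.8%) on all other chromosomes. Between the first and the last of the 32 genes lies only 1 such row, Mrpl40, itself among the 32, so register there was not checked separately by these families. Of the 61 coding rows there, 36 (59%) averaged 20 CPM or more, against 19.4% of coding rows on all other chromosomes. The ends of the stretch were taken over from earlier work on these data. The row named Rcor2 (ENSMUSG00000024968) lies outside it and held between 201 and 265 CPM in the 15 libraries used, with control and hairpin libraries overlapping, so it does not check the silencing or the construct labels. The rows of the osteoblast markers also lie outside, so the cell type was not checked against them, while Adipoq, the fat cell marker inside the stretch, averaged 0.199 CPM. Sample 1 of each construct at 0h was left out, since these 3 libraries had stood apart in earlier work on these data. In them the 32 genes made up 0.966% to 1.07% of counts, against 0.52% to 0.595% in the 15 libraries used, so leaving them out bears directly on the levels of these genes. Totals ran from 3504808 to 6139315 counts in the libraries used and from 2572026 to 9798498 in those left out.

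The 22q11.2 deletion removes 1 copy of a run of neighbouring genes with unrelated products and is known for heart outflow, thymus, palate and craniofacial defects, low calcium and psychiatric illness. Tbx1, a T-box transcription factor of the pharyngeal region, and Crkl, an adaptor of tyrosine kinase signalling, are the genes most often tied to the heart and craniofacial features, and Dgcr8, the RNA-binding partner of Drosha in microRNA processing, to neuronal ones. The skull vault, from which this line derives, forms bone from cells of the neural crest and mesoderm, tissues in which several of these genes act.

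Several of the genes start back to back, so that a short stretch of DNA lies before both start sites. Promoter windows of 300 bases (250 before a start and 50 after it) came from RefSeq on GRCm38.p6 and matched 31 of the 32 genes by symbol and strand, Slc7a4 being unmatched. Shown first are the bases between the start sites of 3 head-to-head pairs, on the plus strand of chromosome 16, followed by the 250 bases before the start of Scarf2, Rtn4r and Slc25a1, 3 genes described at length below and picked after their values were seen. Capitals mark GGGCGG, the core of GC boxes, and CCAAT, the core of CCAAT boxes, on either strand.
Mrpl40 and Hira, chr16:18876638-18876749: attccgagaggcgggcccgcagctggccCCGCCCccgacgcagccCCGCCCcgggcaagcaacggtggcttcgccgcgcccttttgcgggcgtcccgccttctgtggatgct
Tango2 and Arvcf, chr16:18348099-18348181: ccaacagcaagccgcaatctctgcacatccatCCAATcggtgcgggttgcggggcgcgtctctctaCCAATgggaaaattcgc
Ranbp1 and Trmt2a, chr16:18248695-18248882: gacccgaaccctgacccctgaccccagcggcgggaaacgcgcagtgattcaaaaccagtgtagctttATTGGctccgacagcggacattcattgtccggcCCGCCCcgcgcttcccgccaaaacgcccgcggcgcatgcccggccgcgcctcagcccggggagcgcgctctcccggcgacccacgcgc
Scarf2, plus strand, chr16:17797032-17797281: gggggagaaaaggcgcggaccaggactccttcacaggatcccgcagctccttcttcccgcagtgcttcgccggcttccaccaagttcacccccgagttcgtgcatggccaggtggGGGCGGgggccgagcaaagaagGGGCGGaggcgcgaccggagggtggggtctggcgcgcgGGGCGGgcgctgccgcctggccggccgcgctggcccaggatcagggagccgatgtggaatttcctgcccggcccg
Rtn4r, plus strand, chr16:18127392-18127641: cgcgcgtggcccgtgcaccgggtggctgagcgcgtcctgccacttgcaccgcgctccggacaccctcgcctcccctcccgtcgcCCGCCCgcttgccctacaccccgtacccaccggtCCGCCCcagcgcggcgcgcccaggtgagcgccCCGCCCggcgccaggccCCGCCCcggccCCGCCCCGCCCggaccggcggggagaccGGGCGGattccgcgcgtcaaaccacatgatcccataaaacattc
Slc25a1, minus strand, chr16:17928220-17928469: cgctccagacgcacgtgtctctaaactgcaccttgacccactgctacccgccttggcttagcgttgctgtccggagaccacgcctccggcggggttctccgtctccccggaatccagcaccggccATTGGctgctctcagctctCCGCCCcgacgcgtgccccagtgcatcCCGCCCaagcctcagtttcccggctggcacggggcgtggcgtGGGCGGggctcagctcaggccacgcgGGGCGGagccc

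The RefSeq start sites of these pairs lie 113 (Mrpl40 and Hira), 84 (Tango2 and Arvcf) and 189 bases apart (Ranbp1 and Trmt2a). In the GENCODE models used for exon lengths, the first 2 distances are 175 and 79 bases. Ranbp1 and Trmt2a overlap there by 54 exonic bases, with no interval between their starts. The interval between Tango2 and Arvcf holds 2 CCAAT matches and no GGGCGG, that between Mrpl40 and Hira holds 2 GGGCGG matches and no CCAAT, and that between Ranbp1 and Trmt2a holds 1 of each. The bases before Rtn4r hold 7 GGGCGG matches, of which a pair shares a base, those before Slc25a1 hold 4 and those before Scarf2 hold 3. The windows of the 31 genes had a median GC content of 63.3%, from 44.7% to 78%, against 52.7% over all 32851 RefSeq windows, and a median of 21 CpG dinucleotides against 7. GGGCGG was found on either strand in 20 of the 31 windows (64.5%, against 35.7% of all windows), CCAAT in 15 (48.4% against 37.4%), CCGGAAGT, the core bound by ETS factors, in 4 (12.9% against 3.89%) and TATAAA in 3 (9.68% against 13.6%). The E-box CACGTG was in 2 windows (6.45% against 7.15%) and the palindromic NRF1 element in 0 (0.971% of all windows). Windows of genes in the same printed pair overlap, so the same match can be counted for both genes. A match describes the sequence only.

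Most of the genes were expressed well above background in these cells: 26 of the 32 averaged 20 CPM or more over the 15 libraries. The 3 with the highest mean CPM were Dgcr2, a membrane protein of the adhesion receptor type (528 CPM), Scarf2, a scavenger receptor of the SCARF family (460 CPM), and Lztr1, which brings Ras proteins to a cullin ubiquitin ligase (427 CPM). Divided by the exonic length in the annotation, the order was led by Ranbp1, the Ran-binding cofactor of nuclear transport (155 CPM per kb), Scarf2 (120 CPM per kb) and Slc25a1, the mitochondrial citrate carrier (94.2 CPM per kb). The detected genes with the lowest means were Slc7a4, a relative of the cationic amino acid transporters (1.54 CPM), Prodh, which begins proline breakdown in mitochondria (1.70 CPM), and Rtn4r, the Nogo receptor (11.7 CPM). Slc7a4 stood at 0.743, 0.661 and 1.02 CPM at 0h (shScramble, shRcor2-18 and shRcor2-20), between 0.81 and 3.07 at 24h (median 1.48) and between 0.958 and 3.42 at 7d (median 1.53). Prodh stood at 2.72, 0.881 and 1.53 CPM at 0h, between 0.453 and 2.01 at 24h (median 1.05) and between 1.14 and 3.84 at 7d (median 2.15). In both genes the times overlapped.

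**Figure D1:**
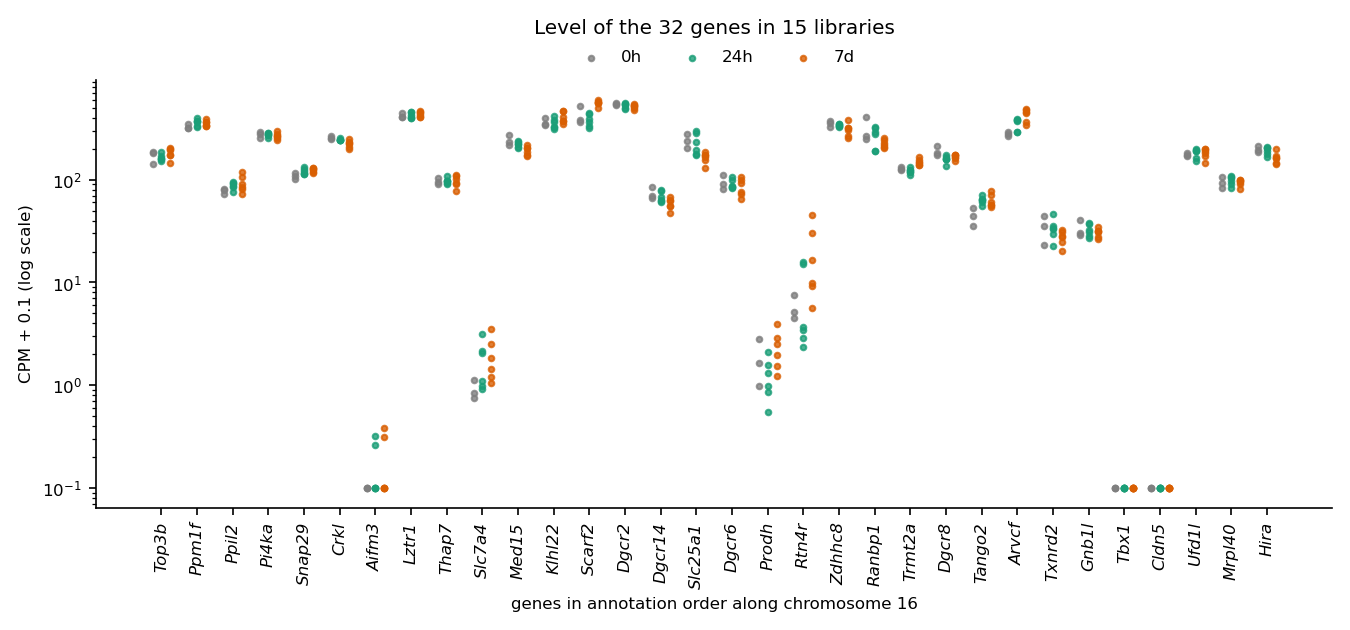
Level of the 32 genes on a log axis of CPM plus 0.1, with 1 point per library (3 at 0h, 6 at 24h, 6 at 7d) and genes in annotation order along chromosome 16. Tbx1 and Cldn5 lie at 0 counts, Slc7a4 and Prodh near 1 CPM, and 26 genes at 20 CPM or more.

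Tbx1, the gene most studied for the deletion, and Cldn5, the tight-junction claudin of endothelium, were not detected in any of the 15 libraries, which allows levels of up to 0.046 CPM each (3 counts over 65150926, for counting error only). Aifm3, of the apoptosis-inducing factor family, was at 0 in 11 of them.

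The spread of the 26 genes at 20 CPM or more depends on the libraries left out. Within the 15 libraries used, the highest exceeded the lowest by less than 1.5 times for 12 of the 26 genes and by less than 2 times for 22, with a median of 1.51. Lztr1 and Dgcr2 had the lowest ratio, 1.17 each, but the left-out 0h libraries reached 792 CPM for Lztr1 and 1139 CPM for Dgcr2. Lztr1 stood at 403, 441 and 404 CPM at 0h, between 399 and 459 at 24h (median 419) and between 403 and 467 at 7d (median 436). Dgcr2 stood at 544, 532 and 561 CPM at 0h, between 491 and 560 at 24h (median 542) and between 478 and 545 at 7d (median 523). Lztr1 averaged 416 ± 21.4 CPM at 0h (SD, n = 3), 426 ± 27.2 at 24h (SD, n = 6) and 434 ± 24.8 at 7d (SD, n = 6). Dgcr2 averaged 546 ± 14.7, 529 ± 30.0 and 517 ± 24.9 CPM at the same times, though a predicted read-through gene, Gm20518, shares its exons and the treatment of strand is not stated. The highest ratio within the 15 libraries was that of Slc25a1, 2.31. The median biological coefficient of variation (edgeR's tagwise estimate) was 0.10 for the 26 genes, 0.12 for 317 coding rows of the stretch at that level and 0.16 for 4783 other rows.

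The change with time was tested first, averaged over the 3 constructs, with edgeR's quasi-likelihood test on all 12930 rows that passed its filter, and a gene is said to have changed where the Benjamini-Hochberg adjusted p was under 0.05. With a single 0h library per construct, the scatter at 0h was borrowed from the later times. Scarf2, which rose from 24h to 7d, was the 1 gene of the 29 to pass in any of the 3 comparisons. None passed between 0h and 24h, where 1.86% of all rows did (1.47% as higher and 0.387% as lower). An unadjusted p under 0.05 was found for 2 of the 29 (Tango2 and Dgcr8, both named after their values were seen). Over the 12930 rows it was found for 1481. None passed between 0h and 7d, where 5.76% of all rows did (3.27% as higher and 2.49% as lower). There 8 of the 29 had an unadjusted p under 0.05, against 2650 of the 12930 rows. Between 24h and 7d 2.34% of all rows passed (1.15% as higher and 1.18% as lower). There 6 of the 29 had an unadjusted p under 0.05, against 2308 of the 12930 rows. DESeq2 passed Dgcr8 as lower at 24h against 0h (4.5% of all rows), Arvcf, Scarf2 and Tango2 as higher at 7d against 0h (11% of rows), and Scarf2 and Trmt2a as higher at 7d against 24h (8.51% of rows).

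**Figure D2:**
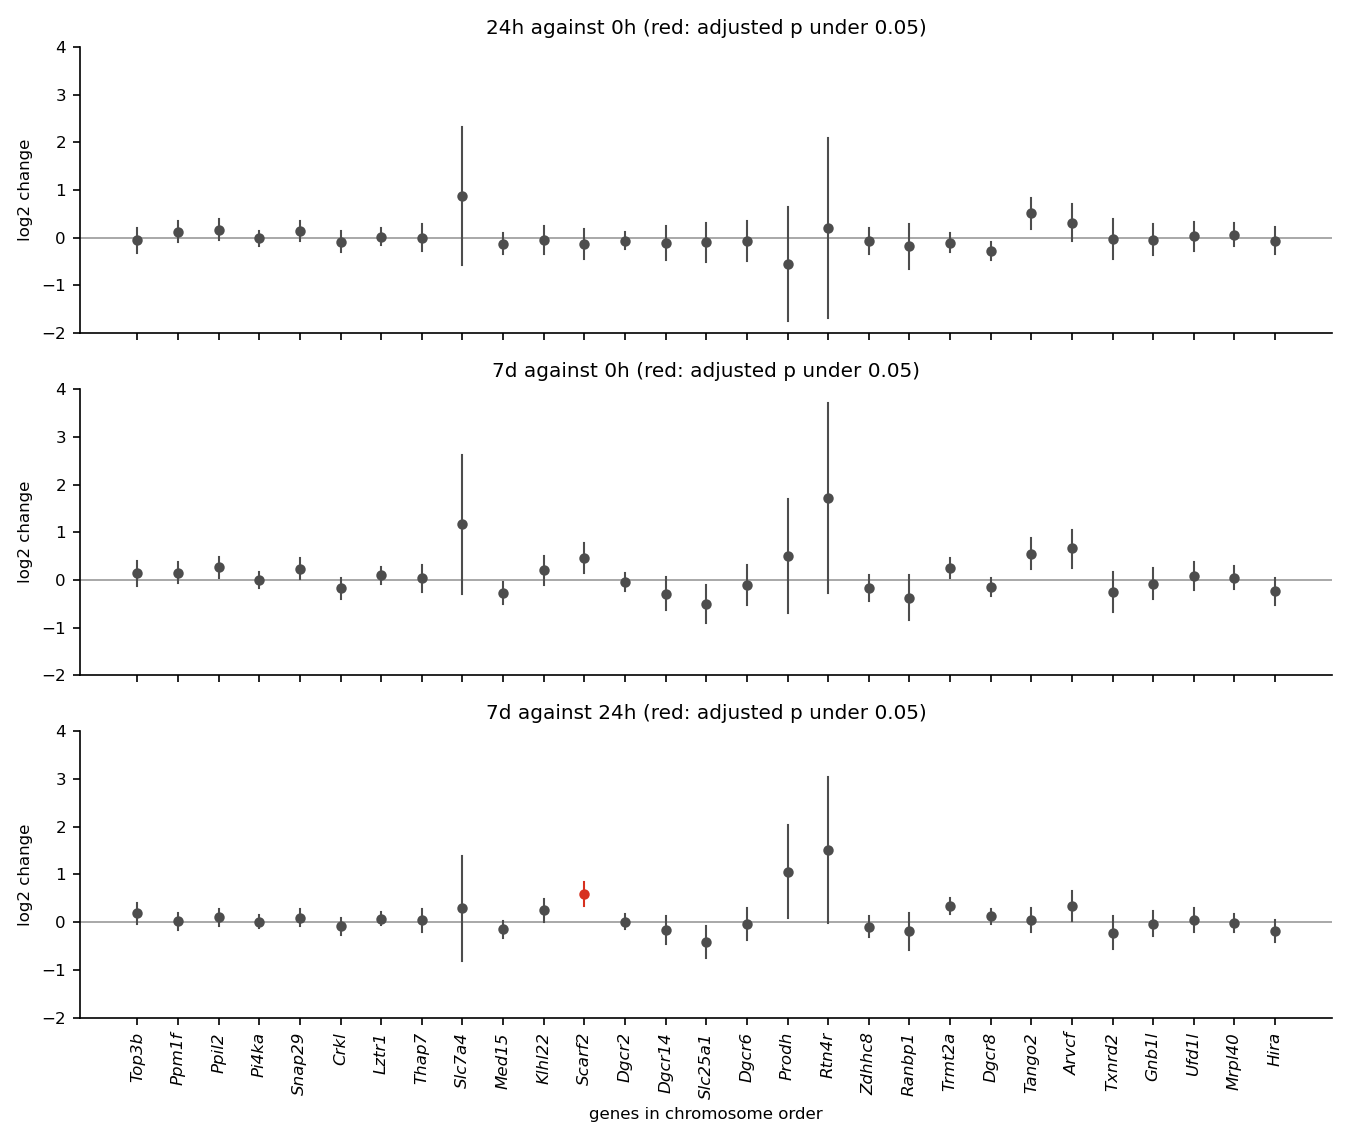
Log2 change of the 29 tested genes in the 3 comparisons of the times, averaged over the constructs, with 95% intervals of the edgeR fit as lines. The red point is Scarf2 at 7d against 24h (0.59), and the wide intervals belong to Slc7a4, Prodh and Rtn4r, the genes with the lowest levels.

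The median log2 change of the 29 genes was -0.05 at 24h against 0h (0.06 over all rows), 0.05 at 7d against 0h (0.07) and 0.04 at 7d against 24h (-0.02). The 95% interval of the change lay within 0.5 of zero on the log2 scale for 23 of the 29 at 24h against 0h, for 16 at 7d against 0h and for 20 at 7d against 24h. That is 79.3%, 55.2% and 69% of the 29. For the 323 other coding genes of the stretch it is 44.6%, 31.9% and 52.3%, and for all rows 15%, 11.4% and 18.3%. The sets also differed in the width of their intervals, so these shares do not compare changes at equal precision. In the same order, the median standard error was 0.12, 0.12 and 0.1 for the 29 and 0.16, 0.16 and 0.13 for those 323. Over all rows it was 0.39, 0.39 and 0.32.

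Because the other rows of the table carry names out of register, the same model was also fitted to the 373 tested coding rows of the chromosome 16 stretch alone. There 23.3% of rows passed at 7d against 0h and 15.8% at 7d against 24h, and the genes that passed were Arvcf, Scarf2, Tango2, Slc25a1 and Med15 in the first comparison and Scarf2, Trmt2a and Slc25a1 in the second. At 24h against 0h 5.63% passed and none of the genes did. Adding a replicate block for the sample number inside every construct, since same-numbered libraries deviated together at 24h and 7d, raised these shares to 30.3%, 29% and 11.3%. That fit, added after the data were seen, passed 6 genes at 7d against 0h, 8 at 7d against 24h and 1 at 24h against 0h. The 6 were Arvcf, Slc25a1, Scarf2, Med15, Rtn4r and Hira, and Tango2 no longer passed. With the block and all rows, where 3.34% of rows passed at 7d against 0h and 1.31% at 7d against 24h, Arvcf and Slc25a1 passed in the former and none in the latter. At 24h against 0h 0.433% of rows passed and none of the genes did. With all 18 libraries, where 1.56%, 6.98% and 0.313% of rows passed at 24h against 0h, 7d against 0h and 7d against 24h, Slc25a1 passed at 7d against 0h and no other gene in any of the 3. In that setting many of the genes moved down at 7d against 0h, such as Dgcr2 from -0.04 to -0.67, Thap7 from 0.04 to -0.77 and Crkl from -0.17 to -0.83, so the call is no further evidence on Slc25a1.

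Libraries of different times were also compared by whether their CPM overlapped. At 24h against 0h Tango2 lay wholly higher (1 of 29, 3.45%, against 4.17% of all rows) and Dgcr8 wholly lower (3.45% against 3.47%). At 7d against 0h Arvcf, Tango2, Trmt2a and Snap29 lay wholly higher (13.8% against 6.33%) and Slc25a1 and Med15 wholly lower (6.90% against 8.63%). At 7d against 24h Scarf2 and Trmt2a lay wholly higher (6.90% against 2.03%) and 0 genes wholly lower (3.23% of all rows).

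Read pair by pair, 5 genes stood higher at 7d than at 24h in all 6 pairs matched by construct and sample number: Scarf2, Rtn4r, Arvcf, Trmt2a and Klhl22. That is 17.2% of the 29, against 15.3% of the stretch and 6.54% of all rows. Slc25a1, Hira and Dgcr14 stood lower in all 6, which is 10.3% of the 29, against 15.3% of the stretch and 10.7% of all rows.

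Of the 6 genes for cell surface, adhesion and transport, 5 were tested and 1 passed at 7d against 24h, where 2.34% of all rows did. Their median log2 change was 0.34, against -0.02 over all rows, and Dgcr2 measured 0.01 ± 0.066. Scarf2 is named for its resemblance to a scavenger receptor, and in people its loss causes Van den Ende-Gupta syndrome, which affects the skeleton. It stood at 522, 377 and 365 CPM at 0h (shScramble, shRcor2-18 and shRcor2-20). At 24h it stood at 335 and 440 in shScramble, 320 and 450 in shRcor2-18, and 386 and 363 in shRcor2-20. At 7d it stood at 599 and 569, 494 and 563, and 565 and 556 in the same order. All 6 libraries at 7d were above all 6 at 24h, and the shScramble library at 0h lay above all 24h libraries and above 1 of those at 7d. The rise from 24h to 7d was 0.59 ± 0.11 on the log2 scale (SE), 1.5-fold, with an edgeR adjusted p of 0.0407. It measured 0.63 ± 0.20 in shScramble, 0.50 ± 0.20 in shRcor2-18 and 0.64 ± 0.20 in shRcor2-20, none of which passed alone (0.0773%, 0.0387% and 0.0155% of rows did). Against 0h the change at 7d was 0.46 ± 0.14 (adjusted p = 0.107 over all rows, 0.0462 in the stretch), and with the left-out 0h libraries it was -0.02.

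The size of the Scarf2 rise held from 0.50 to 0.69 over 24 alternative fits, while its side of the threshold held in 12. With the replicate block it was 0.60 ± 0.083 with an adjusted p of 0.0518 over all rows, and 0.54 ± 0.078 with an adjusted p of 1.51e-05 in the stretch. It no longer passed without any single library at 7d, or without either 24h library of shScramble or of shRcor2-20, with adjusted p between 0.0548 and 0.106 in those 10 fits.

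Rtn4r, which binds myelin inhibitors of axon growth, had the largest fold difference with time but also the widest spread. It stood at 7.43, 4.40 and 5.11 CPM at 0h. At 24h it stood at 2.28 and 15 in shScramble, 2.81 and 3.62 in shRcor2-18 and 15.9 and 3.33 in shRcor2-20. At 7d it stood at 16.6 and 30.5, 9.82 and 9.05, and 44.9 and 5.49. Sample 2 of shScramble and sample 1 of shRcor2-20 were the highest at both times, and the libraries of the times overlapped. The log2 change at 7d against 24h was 1.51 ± 0.66 (adjusted p = 0.284), and 1.57 ± 0.31 with the replicate block (adjusted p = 0.0916). In the stretch with the block it was 1.48 ± 0.26, which passed (adjusted p = 9.78e-05).

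Arvcf, an armadillo-repeat protein that binds cadherins at cell junctions, stood at 264, 278 and 292 CPM at 0h. At 24h its libraries held 293 and 387 (shScramble), 289 and 377 (shRcor2-18) and 373 and 377 CPM (shRcor2-20), and at 7d 364 and 460, 339 and 483, and 477 and 443 CPM. Every 7d library lay above every 0h library, and sample 1 of shScramble and of shRcor2-18 were the lowest at both later times. The change at 7d against 0h was 0.66 ± 0.17 (1.58-fold, adjusted p = 0.0659 over all rows). It passed with the replicate block (0.79 ± 0.069, adjusted p = 0.0152) and in the stretch (0.60 ± 0.14, adjusted p = 0.0108), and stood at 0.24 ± 0.22 with the left-out 0h libraries. Of the remaining genes of this group, Dgcr2 changed by -0.04 ± 0.081 on the log2 scale at 7d against 0h and Slc7a4 by 1.17 ± 0.64 (adjusted p = 0.352).

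Among the genes of membrane traffic and lipid modification, Tango2, named for transport and Golgi organisation, had the largest log2 change against 0h. It stood at 35.4, 44.3 and 53.1 CPM at 0h, between 55.5 and 70.7 at 24h and between 53.9 and 77.9 at 7d, so that the later libraries lay above those of 0h. The log2 change was 0.51 ± 0.14 at 24h against 0h (adjusted p = 0.159) and 0.55 ± 0.14 at 7d against 0h (adjusted p = 0.0595), and 0.04 ± 0.11 between the later times. At 7d against 0h it passed in the stretch (0.50 ± 0.16, adjusted p = 0.0478) but not there with the replicate block (0.37 ± 0.15, adjusted p = 0.0621), nor with the block over all rows (0.44 ± 0.12, adjusted p = 0.137). With the left-out 0h libraries the change at 7d against 0h was 0.03 ± 0.24. Without them, the change by construct was 0.94 in shScramble, 0.54 in shRcor2-18 and 0.17 in shRcor2-20, each against a single 0h library. Arvcf and Tango2, which share the short interval printed above, were both above 0h in every library at 7d, and between 24h and 7d Arvcf stood higher in 6 of 6 pairs and Tango2 in 3. Snap29, a SNARE of membrane fusion, measured 0.24 ± 0.093 at 7d against 0h, its libraries at 109 ± 7.62 CPM at 0h (SD, n = 3) and 125 ± 5.15 at 7d (SD, n = 6) not overlapping (adjusted p = 0.199). Zdhhc8, a palmitoyltransferase, measured -0.16 ± 0.12.

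**Figure D3:**
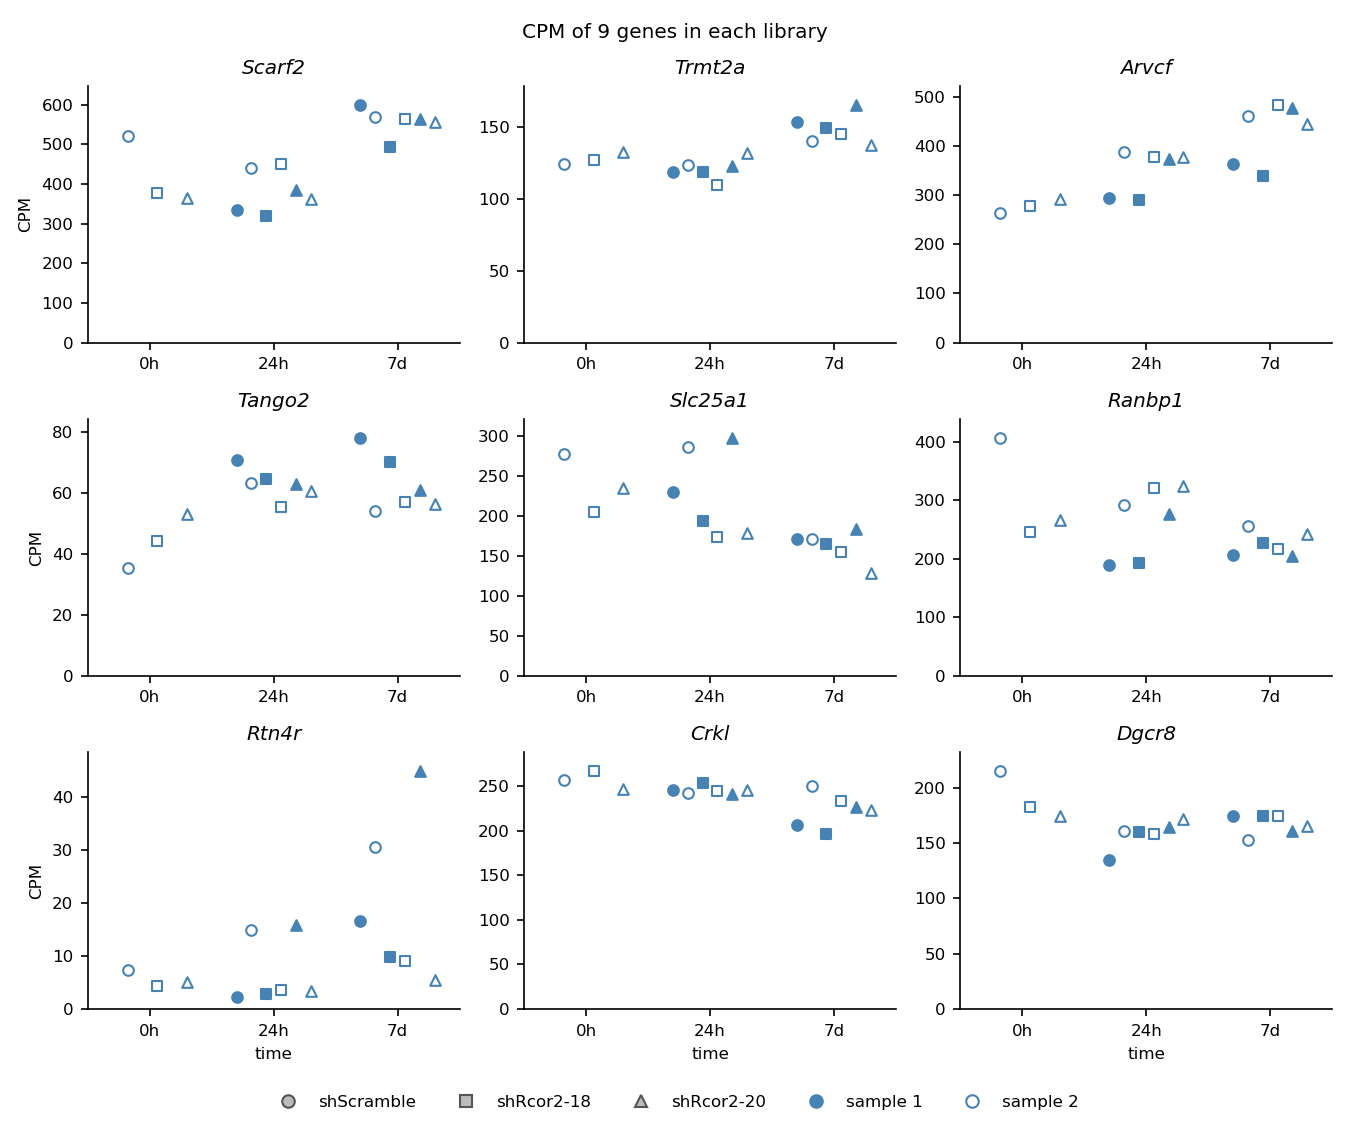
CPM of 9 of the genes in each of the 15 libraries, with time on the horizontal axis, the construct by the shape of the point and the sample number by its fill. Scarf2 and Trmt2a lie higher at 7d than in any library at 24h, while Rtn4r, Arvcf, Slc25a1 and Ranbp1 spread widely between the 2 samples of a group.

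Of the mitochondrial genes at 20 CPM or more, Slc25a1, which exports citrate for lipid synthesis, had the largest log2 change at 7d. It stood at 278, 205 and 235 CPM at 0h. At 24h it stood at 230 and 287 in shScramble, 194 and 175 in shRcor2-18 and 298 and 178 in shRcor2-20. At 7d it stood at 172 in both shScramble libraries, 166 and 155 in shRcor2-18 and 184 and 129 in shRcor2-20. All 7d libraries lay below those of 0h, and sample 2 of shScramble and sample 1 of shRcor2-20 were again the highest at 24h. The change was -0.51 ± 0.17 on the log2 scale at 7d against 0h (adjusted p = 0.141) and -0.42 ± 0.14 at 7d against 24h (adjusted p = 0.178). With the replicate block the former was -0.60 ± 0.086 and passed (adjusted p = 0.0355), as it did in the stretch (-0.57 ± 0.15, adjusted p = 0.0185). In the stretch the change at 7d against 24h also passed (-0.47 ± 0.12, adjusted p = 0.0252).

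The other mitochondrial genes did not pass. Txnrd2, the mitochondrial thioredoxin reductase, averaged 34.1 ± 10.3 CPM at 0h (SD, n = 3), 33.3 ± 7.72 at 24h and 27.3 ± 4.46 at 7d (SD, n = 6 each). Mrpl40, of the mitochondrial ribosome, measured 0.05 ± 0.11 at 7d against 0h, and its libraries lay between 81.4 and 108 CPM. Prodh measured 1.06 ± 0.43 at 7d against 24h on 110 counts in all (adjusted p = 0.246).

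The genes of RNA processing and nucleic acid enzymes included Trmt2a, a tRNA methyltransferase. It stood at 125, 127 and 133 CPM at 0h. At 24h it stood at 119 and 124 (shScramble), 119 and 110 (shRcor2-18) and 123 and 132 CPM (shRcor2-20), and at 7d at 154 and 140, 149 and 145, and 166 and 138 CPM. All 7d libraries were above all libraries of both other times. The change at 7d against 24h was 0.34 ± 0.071 (1.27-fold), with an adjusted p of 0.0503 over all rows and 0.0379 in the stretch. Its exons overlap those of Dgcr8 and, over 54 bases, those of Ranbp1. Without a stated strand setting, reads from the shared parts cannot be told apart.

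Dgcr8 stood at 215, 183 and 175 CPM at 0h, between 135 and 172 at 24h and between 153 and 175 at 7d. The 0h libraries were above all 24h libraries, the shScramble one the most, and the change at 24h against 0h was -0.28 ± 0.082 (1.21-fold lower, adjusted p = 0.201, DESeq2 adjusted p = 0.039). At 7d against 0h it was -0.15 ± 0.082. Dgcr14, a spliceosome-associated protein, measured -0.29 ± 0.15, Ppil2, a cyclophilin-type isomerase, 0.27 ± 0.095 and Top3b, a topoisomerase of DNA and RNA, 0.14 ± 0.11 at 7d against 0h, none of which passed. By construct, Ppil2 measured 0.69 in shScramble, -0.04 in shRcor2-18 and 0.16 in shRcor2-20, each against a single 0h library. Of the 5 genes of this group 3 were above 0 and 2 below at 7d against 0h.

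Of the genes for gene expression in the nucleus, Hira, a histone chaperone that acts outside DNA replication, stood at 213, 193 and 185 CPM at 0h. It lay between 165 and 206 CPM at 24h and between 141 and 198 at 7d, so that the times overlapped. Gm28539, on the same strand, shares 44.7% of its exon length, and reads from the shared part cannot be told apart. The change was -0.24 ± 0.12 at 7d against 0h (adjusted p = 0.329) and -0.18 ± 0.10 at 7d against 24h (adjusted p = 0.416). In the stretch with the replicate block it passed in both (-0.29 ± 0.10, adjusted p = 0.0391, and -0.24 ± 0.079, adjusted p = 0.0229). Med15, a subunit of Mediator, averaged 239 ± 27.3 CPM at 0h (SD, n = 3), 221 ± 12.4 at 24h and 192 ± 18.7 at 7d (SD, n = 6 each), and its log2 change at 7d against 0h was -0.28 ± 0.099 (adjusted p = 0.159, and 0.0478 in the stretch). Thap7, a THAP-domain zinc finger protein, measured 0.04 ± 0.12. Mrpl40, which shares the start region of Hira, averaged 93.3 ± 11.4 CPM at 0h (SD, n = 3) and 93.7 ± 6.84 at 7d (SD, n = 6).

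Among the genes of nuclear transport, protein turnover and cell division, Ranbp1 stood at 406, 246 and 267 CPM at 0h, the shScramble library being far above the others. At 24h it stood at 190 and 292 (shScramble), 192 and 321 (shRcor2-18) and 276 and 325 (shRcor2-20), and at 7d between 205 and 256 CPM. The times overlapped, and the change at 7d against 0h was -0.37 ± 0.20 (adjusted p = 0.356). Ranbp1 and Trmt2a, which start back to back, thus had changes of -0.19 ± 0.17 and 0.34 ± 0.071 at 7d against 24h. Klhl22, an adaptor of a cullin ubiquitin ligase, averaged 355 ± 39.4 CPM at 24h and 406 ± 52.4 at 7d (SD, n = 6 each). Its change was 0.25 ± 0.11 (adjusted p = 0.279), and 0.18 ± 0.065 in the stretch with the block, which passed (adjusted p = 0.0398). Ufd1l, of the machinery that unfolds ubiquitinated proteins, measured 0.08 ± 0.13 and Lztr1 0.10 ± 0.079 at 7d against 0h.

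None of the 4 signalling genes passed, and their log2 changes at 7d against 0h lay between -0.17 and 0.15. Crkl stood at 257, 266 and 246 CPM at 0h, between 241 and 254 at 24h, and at 207 and 250 (shScramble), 197 and 233 (shRcor2-18) and 227 and 223 CPM (shRcor2-20) at 7d. Its change at 7d against 0h was -0.17 ± 0.096 (95% interval -0.39 to 0.05, adjusted p = 0.379). Pi4ka, a lipid kinase of the plasma membrane, measured 0.00 ± 0.070 (95% interval -0.16 to 0.16). Ppm1f, a protein phosphatase, measured 0.15 ± 0.097 and Gnb1l, a WD-repeat protein, -0.08 ± 0.14. Dgcr6, in no group, measured -0.10 ± 0.18.

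The question of the series, what the hairpins against Rcor2 change, was then put to the 29 genes. Averaged over the times, none differed between both hairpins together and shScramble at an adjusted p under 0.05 (0.00773% of all rows passed), and none had an unadjusted p under 0.05. At 24h alone none passed (0.0155% of rows), none at an unadjusted p under 0.05 either. At 7d alone none passed (0.0387% of rows), and 1 gene had an unadjusted p under 0.05. Of the 12930 rows, 839 had an unadjusted p under 0.05 averaged over the times, 353 at 24h and 448 at 7d. DESeq2 passed none in these 3 comparisons. The median difference of the 29 genes was -0.04, -0.01 and 0.03 on the log2 scale. The 95% interval lay within 0.5 of zero for 23 genes averaged over the times, 19 at 24h and 18 at 7d. That is 79.3%, 65.5% and 62.1% of the 29. For the other coding genes of the stretch it is 63.8%, 39.6% and 41.2%, and for all rows 22.8%, 13% and 12.6%. Here too the intervals differed in width between the sets. In the same order, the median standard error was 0.1, 0.15 and 0.15 for the 29 and 0.32, 0.46 and 0.47 over all rows. For the other coding genes of the stretch it was 0.13, 0.19 and 0.19. The fit took the libraries of different times as independent. Over the stretch, however, same-numbered libraries of a construct deviated together at 24h and 7d (correlations of 0.47, 0.44 and 0.32). The intervals averaged over the times may therefore be too narrow.

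**Figure D4:**
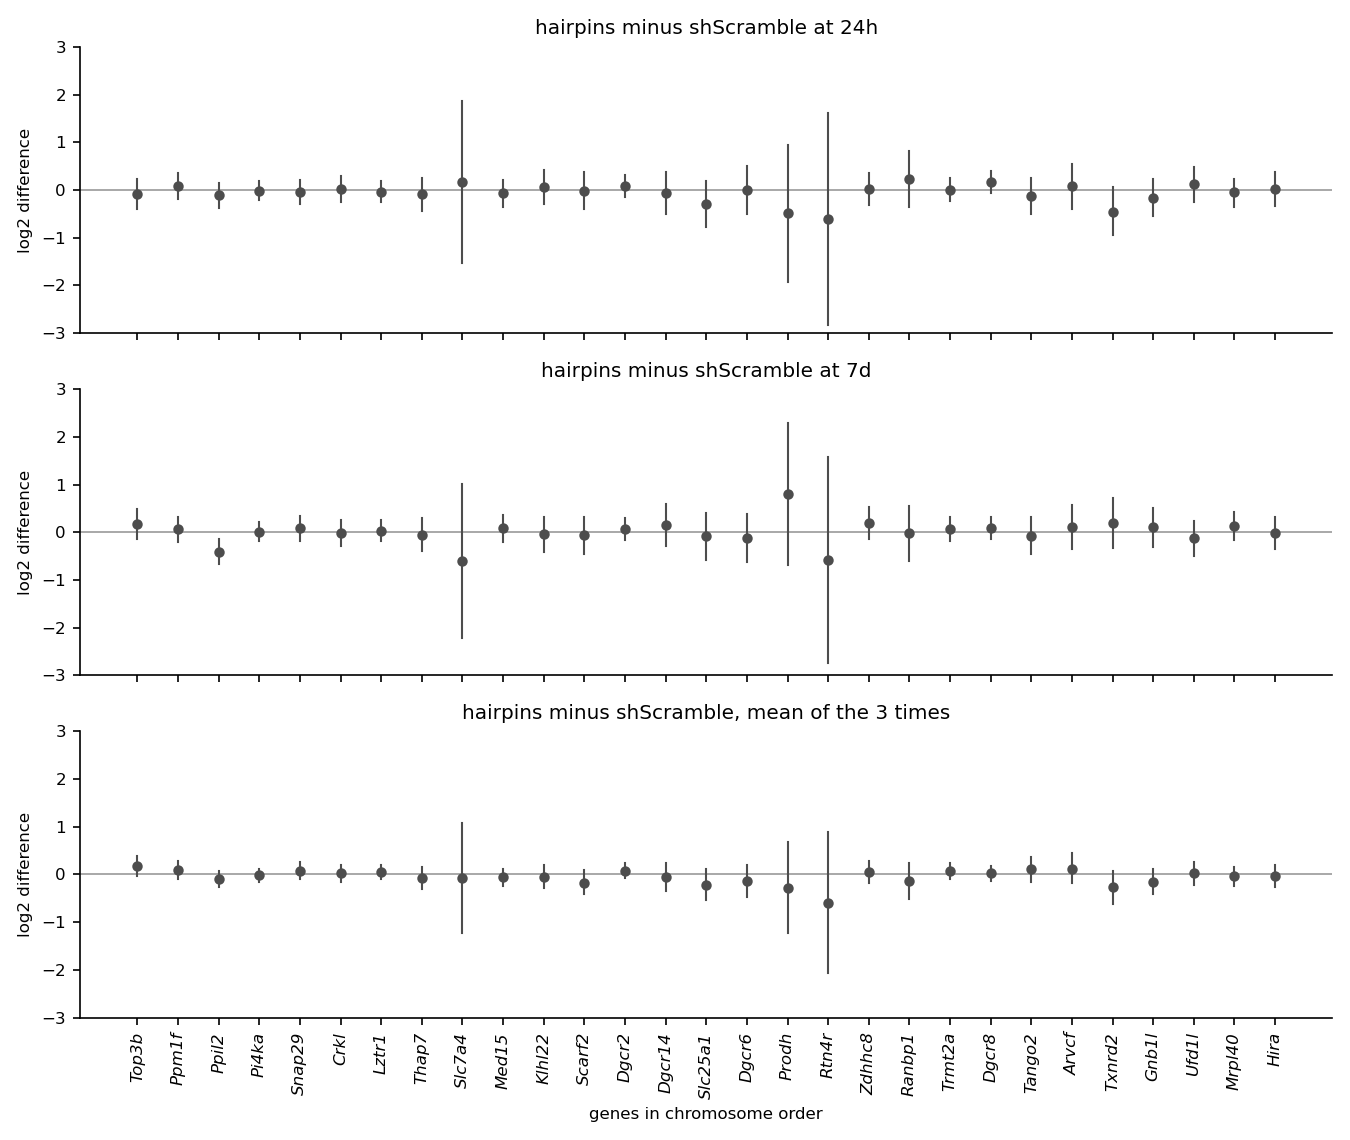
Log2 difference between both hairpins against Rcor2 and shScramble for the 29 tested genes at 24h, at 7d and averaged over the 3 times, with 95% intervals of the edgeR fit as lines. The values for Ppil2 at 7d (-0.41) and at 7d for the low genes Rtn4r (-0.58), Prodh (0.80) and Slc7a4 (-0.60) lie farthest from zero there, and no gene passed.

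The lowest unadjusted p averaged over the times belonged to Top3b and Txnrd2. Top3b stood at 142 CPM in shScramble at 0h against 185 and 183 with the hairpins. At 24h it stood at 159 and 186 against 163, 153, 160 and 170, and at 7d at 197 and 146 against 175, 205, 196 and 173. The groups overlapped at both later times, and the difference was 0.18 ± 0.093 (edgeR adjusted p = 0.791). Txnrd2 stood at 43.8 CPM in shScramble at 0h against 35.2 and 23.3 with the hairpins, at 35.2 and 46.0 against 22.5, 29.2, 33.0 and 33.7 at 24h, and at 30.8 and 20.0 against 24.7, 27.6, 32.4 and 28.1 at 7d. It was lower with the hairpins in every library at 0h and 24h but not at 7d, and the difference was -0.27 ± 0.15 (edgeR adjusted p = 0.816). Ppil2 was the gene at 7d, chosen after its values were seen: it stood at 118 and 105 CPM in shScramble against 80.5, 72.6, 84.2 and 91.0 with the hairpins, a difference of -0.41 ± 0.11 (edgeR adjusted p = 1).

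The genes most studied for the deletion did not differ detectably either. Their intervals averaged over the times may likewise be too narrow. The differences averaged over the times were 0.02 ± 0.068 for Dgcr8 (95% interval -0.14 to 0.17), -0.04 ± 0.10 for Hira (-0.27 to 0.20), 0.02 ± 0.079 for Crkl (-0.16 to 0.20) and -0.13 ± 0.17 for Ranbp1 (-0.52 to 0.25). For Scarf2 it was -0.17 ± 0.11 (-0.42 to 0.09). The difference in the change from 24h to 7d between the hairpins and shScramble was -0.06 ± 0.24 for Scarf2 (95% interval -0.60 to 0.49). None of the 29 genes passed in that test (0.0541% of rows). None had an unadjusted p under 0.05 either, against 400 of 12930 rows.

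The 2 samples of a group were seldom each other's nearest library. Over all tested rows, 1 of the 12 libraries at 24h and 7d was most like the other sample of its own group. The margins were small: correlations were 0.922 to 0.931 with the nearest library and 0.909 to 0.927 with the other sample of the group. At 24h and again at 7d the nearest library to shScramble sample 1 was shRcor2-18 sample 1, that to shScramble sample 2 was shRcor2-20 sample 1, and that to shRcor2-18 sample 2 was shRcor2-20 sample 2. The same libraries stood together in several of the genes: Arvcf and Ranbp1 were lowest at 24h in sample 1 of shScramble and of shRcor2-18, while Slc25a1 and Rtn4r were highest at 24h in sample 2 of shScramble and sample 1 of shRcor2-20.

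**Figure D5:**
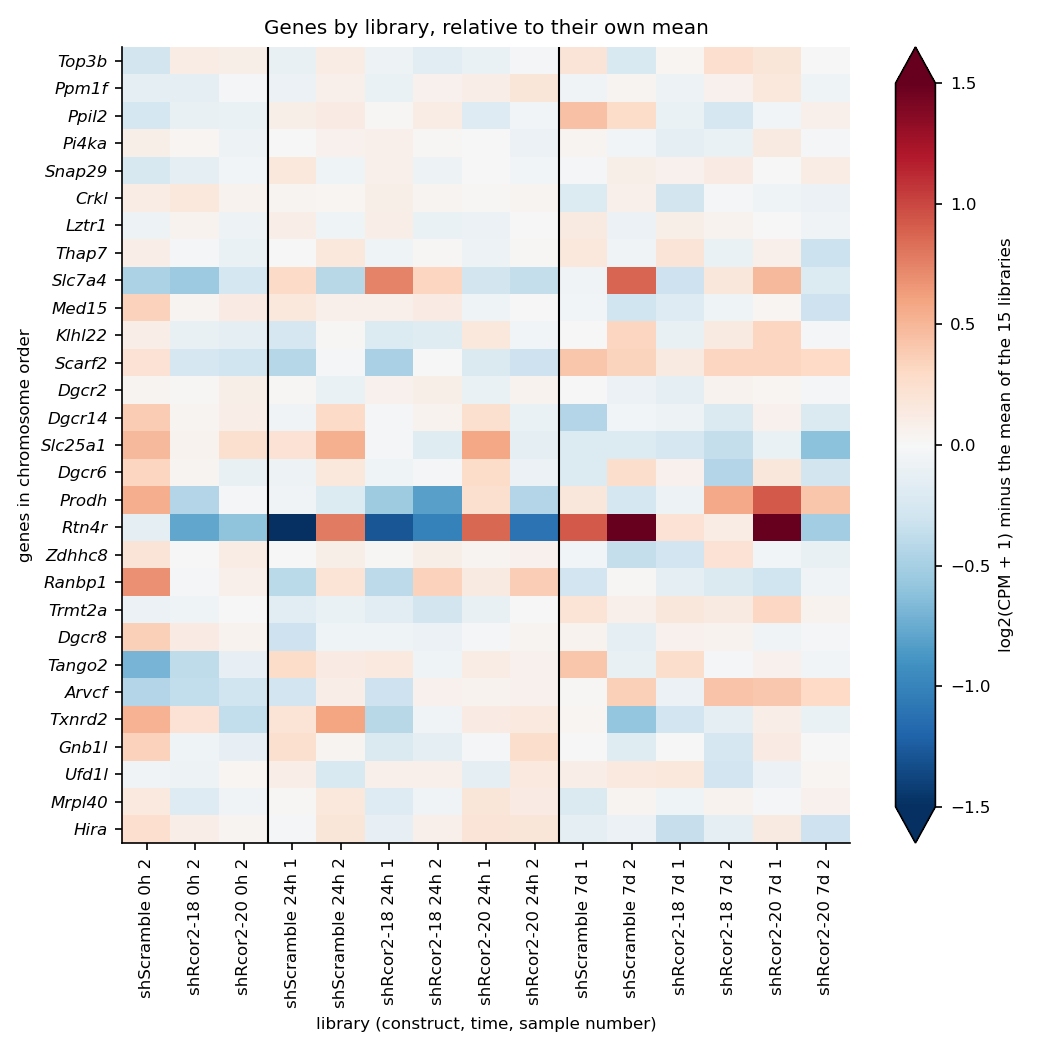
The 29 tested genes (rows, in chromosome order) in the 15 libraries (columns, by time), coloured by log2(CPM + 1) minus the gene's mean over the libraries. Rtn4r spans the widest range (2.28 to 44.9 CPM), with high values in sample 2 of shScramble and sample 1 of shRcor2-20 at both 24h and 7d, and Scarf2 is above its mean in all 6 libraries at 7d.

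The 29 other coding genes that lie between the first and the last of the 32 were described in the same way: 21 were tested and none passed in the 3 comparisons of the times or against shScramble. Their median log2 change at 7d against 0h was 0.00, from -0.83 to 0.92, against a median of 0.05 for the 29 genes tested here. Of the 21, 3 had an unadjusted p under 0.05 there, against 2650 of 12930 rows. DESeq2 passed 1 of the 21 as lower at 7d against 0h and 3 as higher at 7d against 24h.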

How the data were processed

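The authors deposited 1 table of unnormalized counts, with a row per gene and a column per library. FastQC, TopHat2 2.0.9, DESeq, DESeq2 and the mm9 build are named per the submitters' processing notes. How reads were assigned to genes, with which annotation and strand setting, is not given in the sources used here. Gene order and exonic lengths came from GENCODE vM21 on GRCm38, and the counted genes are given no coordinates because the builds differ, while promoter windows carry those of RefSeq on GRCm38.p6.

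The 32 genes, their groups and the tests were chosen with earlier results of these data known. Counts were fitted with edgeR 4.0.16 in R 4.3.3 (filterByExpr, TMM, robust quasi-likelihood) on 9 group means, with p-values adjusted over 12930 rows by Benjamini-Hochberg at 0.05. The fit had 6 residual degrees of freedom and was tested on simulated data. The simulation gave all rows the same spread and did not link same-numbered samples, so it cannot check the fit under such a link. DESeq2 1.42.0 was an alternative, among 24. Per-library values, or those at 0h with the lowest, median and highest at later times, are given for genes past the threshold in a comparison of the times, the 3 highest and 3 lowest detected by mean CPM, the 2 with the lowest p for the hairpins, and Tbx1, Dgcr8, Hira, Crkl and Ranbp1; all others shown in that detail (Arvcf, Tango2, Trmt2a, Slc25a1, Ppil2) were picked after their values were seen.

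The pairing was checked by correlating the difference between samples 2 and 1 at 24h with that at 7d. The correlations were 0.47, 0.44 and 0.32 for the 3 constructs over the 373 tested coding rows of the stretch. Over all rows they were 0.04, 0.07 and 0.05. Same-numbered libraries were therefore treated as paired only in the reading by pairs and in the fits with the replicate block within constructs. This pairing rests on the values and not on a label. The main fit had no replicate block, so its tests and standard errors are unpaired. The totals of 3504808 to 6139315 counts per library set the precision of each value.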

Additional observations from a re-analysis of the deposited data

Results flagged for a closer look

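Among 58 sets of 6 libraries of a gene at 24h or 7d, 2 held a library far from the others by a test for single outlying values, which chance gives for about 1 in 20. Crkl at 24h was highest in sample 1 of shRcor2-18, at 254 CPM. Thap7 at 24h was highest in sample 2 of shScramble, at 108 CPM.

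In 2 genes both 7d libraries of a construct lay above both of its 24h libraries while another construct's lay below, and this difference between single constructs was not tested. Slc7a4 measured -0.85 on the log2 scale in shRcor2-18 and 0.92 in shRcor2-20, on 99 counts over 15 libraries. Ppil2 measured 0.29 in shScramble and 0.19 in shRcor2-20 against -0.19 in shRcor2-18. The test of both hairpins together against shScramble gave -0.29 ± 0.16 for Ppil2 and -0.77 ± 1.0 for Slc7a4 (edgeR adjusted p = 1 each).

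The libraries left out, sample 1 of each construct at 0h, gave the 32 genes 0.966% of counts in shScramble, 0.977% in shRcor2-18 and 1.07% in shRcor2-20, against at most 0.595% in the libraries used. The whole stretch took 11.7% to 12.5% of their counts, against 6.95% to 7.79%. The ratio of the left-out to the used 0h libraries had a median of 1.81 over the tested genes, from 0.751 to 2.46.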

How the results depend on the processing

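For the 3 comparisons of the hairpins with shScramble, the count of genes passing was 0 in every alternative fit. No fit of the mean over the times was made without sample 2 of shScramble at 0h, since that group then has no library. At 24h against 0h the count of 0 became 1 with DESeq2 and 1 in the stretch with the replicate block. At 7d against 0h the count of 0 became 1 without a filter, 3 with DESeq2, 1 with all 18 libraries, 5 in the stretch, 2 with the replicate block within constructs, 2 with the block within times and 6 in the stretch with the block. Leaving out single libraries gave 0 to 1: Scarf2 passed without sample 2 of shRcor2-18 at 24h, and Tango2 without sample 2 of shScramble at 7d. At 7d against 24h the count of 1 became 2 with RLE size factors, 2 with DESeq2, 0 with all 18 libraries, 3 in the stretch, 0 with the replicate block within constructs and 8 in the stretch with the block, and leaving out single libraries gave 0 to 2. Over all rows at 7d against 0h, 663 of 26456 passed without a filter and 675 of 12930 with the block within times. With RLE size factors 305 of 12930 passed at 7d against 24h. Within single constructs the count of 0 became 3 in the stretch with the block. The share of rows passing in that fit within single constructs is not given here, so the 3 cannot be set against it. The cause was not tested for any of these moves, though fewer rows were adjusted for in the stretch. The stretch with the block and the block within times for the comparisons of times were chosen after seeing the data. Between constructs, deviations of same-numbered samples over the stretch correlated at 0.33 at 24h and 0.33 at 7d for shScramble with shRcor2-18, at 0.20 and 0.24 for the hairpins with each other, and at -0.03 and 0.08 for shScramble with shRcor2-20, so numbers were not taken to pair all constructs. With all 18 libraries the median change of all rows shifted from 0.06 to 0.18 at 24h against 0h and from 0.07 to 0.19 at 7d against 0h. At the lowest levels, depth limits what can be seen: Slc7a4 had 99 counts and Prodh 110 over 15 libraries.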
